A study of Rattus norvegicus with 4 samples.

Results

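Macrophage nuclei were taken from single-nucleus RNA-seq of rat adipose tissue by their transcripts. They were the barcodes that carried macrophage markers and almost none of 7 genes of other cell types. Adipocyte genes were not limited. A barcode was kept with at least 500 detected genes. It counted as a macrophage nucleus with at least 3 unique molecular identifiers (UMIs, each 1 captured transcript) over at least 2 of the 7 marker genes Mrc1, F13a1, Cd163, Csf1r, Adgre1, Cd68 and Mertk, and with at most 1 UMI over the 7 genes Cyyr1, Ptprb, Pdgfra, Dcn, Myh11, Cd3e and Cd79a, which mark endothelial cells, fibroblasts, smooth muscle and lymphocytes. The rule found 1233 nuclei among 116661 kept barcodes. Of these, 781 had a UMI of Mrc1 or Cd163 and are called positive, and 452 had neither and are called negative.

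The tissues came from naive male rats of the Dahl salt-sensitive strain SS/HsdMcwiCrl, aged 16 weeks and labelled as normal. There were 2 libraries of thoracic aorta perivascular adipose tissue (taPVAT), the brown-like fat around the thoracic aorta, and 2 of subscapular brown adipose tissue (BAT). Both tissues were snap frozen, about 50 mg was used for nuclei, and 10000 nuclei were targeted per library. The design text speaks of 2 rats for each tissue, and the labels do not say whether a rat gave both tissues. No group was treated, so the comparison is between tissues of a strain that all libraries share.

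Macrophages are phagocytes of the innate immune system that settle in tissues from fetal progenitors or from blood monocytes and depend on signalling through Csf1r, the receptor of colony-stimulating factor 1. Those that line vessels and lie between adipocytes carry the mannose receptor Mrc1 and the haemoglobin-haptoglobin scavenger receptor Cd163, clear debris and lipoproteins, and hold iron. In fat they are known to take up lipid from dying adipocytes and to respond to noradrenaline from sympathetic nerves.

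The libraries held 14765 to 44637 barcodes and 63654436 to 158140959 UMIs, so all 4 had more barcodes than the targeted number of nuclei. Macrophage nuclei of the replicates labelled 2 stood apart: their median mitochondrial share was 15.3% in taPVAT 2 and 13.2% in BAT 2, against 6.99% in taPVAT 1 and 6.60% in BAT 1. In all other barcodes it was 7.38% and 6.70% in taPVAT 1 and 2 and 6.97% and 10.1% in BAT 1 and 2. Pairs of libraries shared 93 to 381 kept barcode sequences, and 36 of the 1233 macrophage nuclei had a sequence that was also kept in another library. None of these sequences was a macrophage nucleus in both libraries of a pair. Adipocyte transcripts were present in every class: the 14 genes of an adipocyte list had a median level in macrophage nuclei of 75.3% to 93.6% of that in all other barcodes, so an adipocyte gene's own expression in macrophage nuclei cannot be told apart from this background. The median was 74.8% to 90.9% in positive nuclei and 77.9% to 101% in negative nuclei. It was highest in negative nuclei of BAT 1, against 83.4% in the positive nuclei there. The values below are counts scaled to a total of 1000000 UMIs (CPM) of the summed nuclei of a class in a library, a scale on which genes are not corrected for length.

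Macrophage nuclei were rare in every library. In taPVAT they were 385 of 42979 kept barcodes in replicate 1 (0.896%, 95% Wilson interval 0.811 to 0.989) and 212 of 12336 in replicate 2 (1.72%, 1.504 to 1.96). In BAT they were 471 of 34553 in replicate 1 (1.36%, 1.25 to 1.49) and 165 of 26793 in replicate 2 (0.616%, 0.529 to 0.717). The highest and the lowest share thus came from libraries of replicate 2, and the tissues overlapped. The mean share was 1.31% ± 0.582 in taPVAT and 0.989% ± 0.528 in BAT (SD, n = 2 each), a difference of 0.318 percentage points with an exact two-sided permutation p of 0.667. With 2 libraries against 2, the smallest p that this test allows is 0.333. The difference was -0.467 points between the replicates labelled 1 and 1.10 points between those labelled 2, and leaving out taPVAT 2 or BAT 2 turned its sign (-0.0937 and -0.0560 points). The intervals cover counting error only. After thinning every barcode to 1000 UMIs, the shares were 0.272% and 0.891% in taPVAT 1 and 2 and 0.384% and 0.216% in BAT 1 and 2, in the same order of libraries. Thinning left out 1451, 102, 462 and 463 barcodes of lower depth in these 4 libraries. The order changed under other settings. Among barcodes with at most 10% mitochondrial UMIs, the shares were 0.829% and 0.780% in taPVAT 1 and 2 and 1.19% and 0.570% in BAT 1 and 2. The difference was then -0.0775 points. With Mertk and Cd68 left out of the rule, the shares were 0.496% and 1.35% in taPVAT 1 and 2 and 0.686% and 0.496% in BAT 1 and 2.

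The positive nuclei made up 272 of 385 macrophage nuclei in taPVAT 1 (70.6%, 65.9 to 75.0) and 148 of 212 in taPVAT 2 (69.8%, 63.3 to 75.6). They were 240 of 471 in BAT 1 (51.0%, 46.5 to 55.4) and 121 of 165 in BAT 2 (73.3%, 66.1 to 79.5). Only BAT 1 stood lower than the rest, and without it the difference of 8.09 points between the tissue means became -3.10 points. The exact permutation p over the 4 libraries was 1. Depth differed between the classes: negative nuclei had a median of 4966 UMIs in taPVAT 1 and 5474 in BAT 1, against 3141 and 2505.5 in the positive nuclei of the same libraries. In replicate 2 the medians were 2400.5 and 2182.5 UMIs for negative nuclei of taPVAT and BAT, and 1960.5 and 2750 for positive ones. After thinning to 1000 UMIs, the positive shares were 43.0% and 52.9% in taPVAT 1 and 2 and 34.3% and 53.3% in BAT 1 and 2, a difference of 4.16 points. Without Mertk and Cd68 in the rule they were 92.5% and 80.8%, and 84.8% and 83.5%, a difference of 2.53 points. With at least 4 UMIs over 3 markers the difference was 0.734 points.

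**Figure D1:**
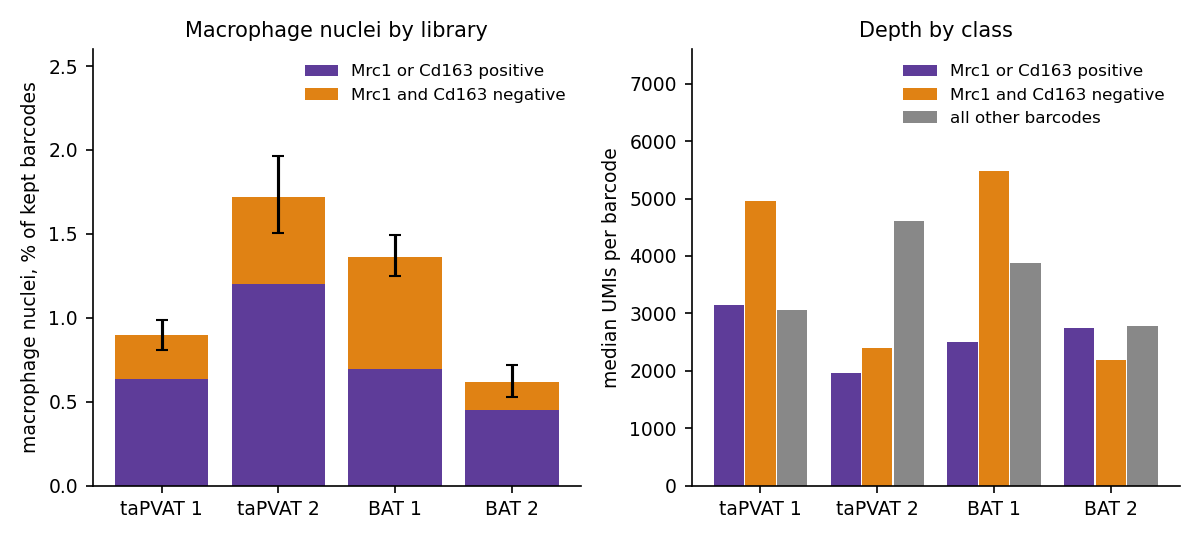
The left panel shows macrophage nuclei as a percentage of kept barcodes in each library, stacked by the presence of a UMI of Mrc1 or Cd163, with the 95% Wilson interval of the total. The right panel shows the median UMIs per barcode of positive, negative and all other barcodes. The shares of the tissues overlap, from 0.616% in BAT 2 to 1.72% in taPVAT 2, and negative nuclei of the replicates labelled 1 are the deepest class.

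The marker genes that chose the nuclei are described here without a test. Mrc1 (ENSRNOG00000018251) stood at 284 and 764 CPM in macrophage nuclei of taPVAT 1 and 2 and at 206 and 619 CPM in those of BAT 1 and 2, against 2.06 to 7.86 CPM in all other barcodes. Cd163 (ENSRNOG00000010253) stood at 259 and 456 CPM in taPVAT and at 215 and 253 CPM in BAT, against 1.24 to 2.603 CPM elsewhere. F13a1, the A chain of coagulation factor XIII, stood at 145 and 239 CPM in taPVAT and at 122 and 148 CPM in BAT, against at most 1.04 CPM elsewhere. These 3 genes marked the nuclei most sharply. Mertk, a receptor for engulfing apoptotic cells, did so less: it had a UMI in 11.1% of all other barcodes of taPVAT 1 and in 19.7% of those of BAT 1, and stood there at 37.8 and 61.7 CPM, against 11.9 and 12.2 CPM in taPVAT 2 and BAT 2. Macrophage nuclei held Mertk at 198 and 128 CPM in taPVAT and at 227 and 63.0 CPM in BAT.

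Genes that did not enter the rule were used to check the label. A list of macrophage identity genes had 22 members in the files, 19 of which reached 20 CPM in macrophage nuclei of some library. All 19 were at least 2-fold higher than in all other barcodes in each of the 4 libraries, where 5.67% of 7192 genes of that level were so. Since the nuclei were chosen by markers that go with these genes, the count is a description. C1qa, C1qb and C1qc, which encode the chains of complement C1q, ranged from 26.04 to 97.0 CPM in macrophage nuclei and from 1.35 to 3.10 CPM elsewhere. Ctss, the lysosomal protease cathepsin S, stood at 61.9 and 201 CPM in taPVAT and at 67.8 and 95.2 CPM in BAT, against 2.17 to 3.89 CPM elsewhere. Spi1, which encodes the myeloid transcription factor PU.1, lay between 26.04 and 63.9 CPM, against 2.77 to 4.19 CPM.

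The share of nuclei with a UMI of the identity list was compared between the classes as a description. After thinning to 1000 UMIs, 67.6% and 85.2% of positive nuclei in taPVAT 1 and 2 and 74.7% and 79.3% in BAT 1 and 2 had a UMI of the identity list, against 14.3% to 15.4% of all other barcodes. Of the negative nuclei, 71.9% in taPVAT 2 and 80.5% in BAT 2 had one, but 41.4% in taPVAT 1 and 38.5% in BAT 1. In those 2 libraries, 36 of 113 negative nuclei (31.9%) and 94 of 231 (40.7%) met the rule on Mertk and Cd68 alone, against 5 of 64 in taPVAT 2 and 3 of 44 in BAT 2. The identity list holds pan-leukocyte genes, and 702 T-lymphocyte nuclei, chosen by the same thresholds over T-lymphocyte genes, reached 70.5% and 87.3% in taPVAT 1 and 2 and 80.4% and 82.7% in BAT 1 and 2, above the positive nuclei of each library. The list thus does not tell macrophage from T-lymphocyte nuclei. Stab1, a scavenger receptor, had no UMI in any of these 702 nuclei and 67.8 to 196 CPM in macrophage nuclei. In negative nuclei alone it stood at 0 to 4.35 CPM, so it does not mark that class. The negative nuclei are therefore called by their rule below, and each class is described apart.

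The threshold lay in a range without a clear step. The identity list summed to 800 CPM in the 443 nuclei with exactly 3 marker UMIs and to 1985 CPM in the 790 nuclei with more. Just inside, at exactly 3 marker UMIs, it was 643, 1265, 718 and 1258 CPM in taPVAT 1, taPVAT 2, BAT 1 and BAT 2. Just outside, the barcodes with 2 UMIs over 2 markers summed to 348, 649, 353 and 1238 CPM in these libraries. The 171, 51, 544 and 49 barcodes with at least 3 UMIs of a single marker, also outside, summed to 398, 3013, 163 and 2452 CPM. In both libraries labelled 2 these excluded barcodes thus had more of the identity list than the nuclei just inside. For the limit on other cell types, the 246 nuclei with 1 such UMI summed to 1102 CPM, and the 62 barcodes just outside, with 2, to 681 CPM. Scrublet called 22 of 385, 14 of 212, 16 of 471 and 0 of 165 macrophage nuclei as doublets in taPVAT 1, taPVAT 2, BAT 1 and BAT 2.

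**Figure D2:**
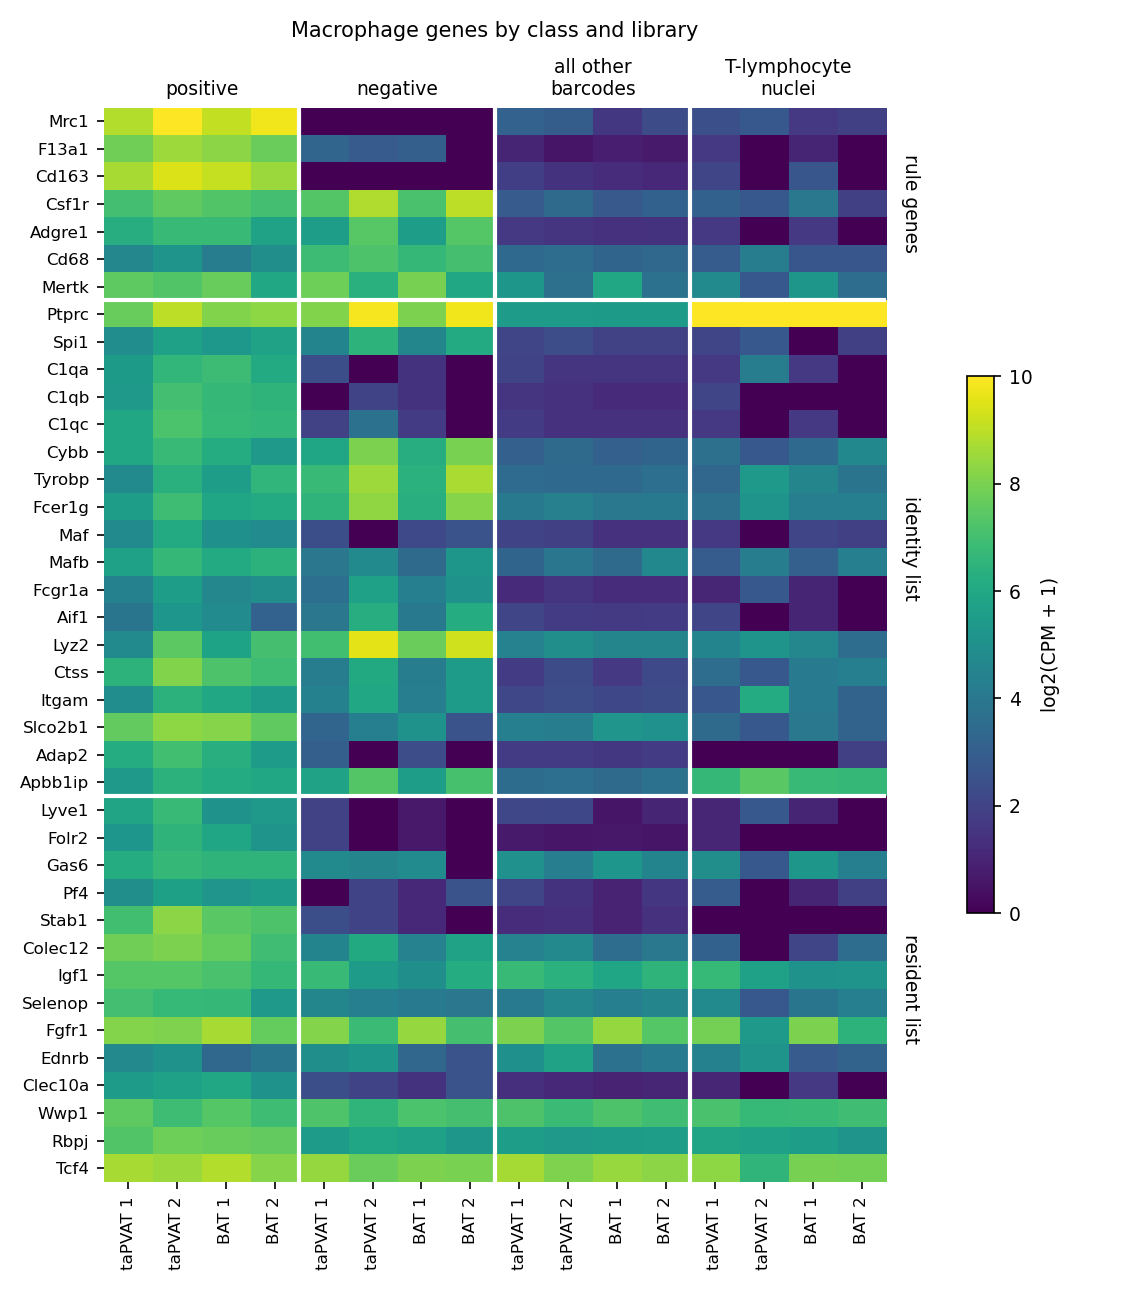
Heat map of log2(CPM + 1) for the rule genes, identity genes and resident-macrophage genes (rows, those above 20 CPM on average in macrophage nuclei, and the 7 rule genes) in positive, negative, all other and T-lymphocyte barcodes of each library (columns). Positive nuclei carry all 3 groups, negative nuclei have little or none of some resident-macrophage genes such as Stab1 and Lyve1 but hold Ptprc, Tyrobp and Lyz2, and Ptprc is highest in T-lymphocyte nuclei.

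By fold over all other barcodes, and with at least 50 CPM in every library, the 15 leading genes included Cd163, F13a1, Negr1, Stab1, Mrc1, Kcnt2, Adgre1, Mctp2, Cd4, Csf1r, Ctss, LOC690045, Apba1 and Tbxas1. Of these, 5 belong to the rule. Negr1, which encodes a cell adhesion protein best known from neurons, stood at 241 and 548 CPM in taPVAT and at 248 and 314 CPM in BAT, against 4.68 to 7.19 CPM elsewhere. Kcnt2, a sodium-activated potassium channel, stood at 256 and 436 CPM in taPVAT and at 159 and 302 CPM in BAT, against 3.57 to 10.0 CPM. Both lay among the first of the 15 by ratio, beside the marker genes. Cd4, a co-receptor that rat macrophages carry besides T helper cells, ranged from 86.3 to 172 CPM, against 3.18 to 3.89 CPM. Tbxas1, thromboxane synthase, ranged from 97.8 to 212 CPM, against 5.83 to 6.76 CPM. Among genes at 50 CPM or more in every library of all other barcodes, Cdh13, an endothelial and mural cadherin, was the only one at least 2-fold lower in macrophage nuclei of each library (3 of 7192 genes, 0.0417%, where 20 CPM in some library of macrophage nuclei was asked for), with 43.4, 42.2, 16.1 and 102 CPM in macrophage nuclei of taPVAT 1, taPVAT 2, BAT 1 and BAT 2 against 97.0 to 209 CPM.

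The promoters of leading genes were searched for AGGAAGT, a form of the purine-rich element that PU.1 and other factors of the ETS family recognise, on either strand. Promoters were the 300 bases from 250 before to 50 after the gene's start in RefSeq on GRCr8, a newer build than the Rnor_6.0 named in the submitters' processing notes. Of the 15 leading genes 13 were matched, and 4 of them (30.8%) held the letters, namely Ctss, F13a1, Mctp2 and Mrc1, against 8.92% of 27457 promoters. F13a1 and Mrc1 are markers that chose the nuclei. Of the 7 markers of the rule, 2 (28.6%) held the letters. F13a1 held them 2 times, starting 57 and 6 bases before the start, and Ctss once on the other strand, 17 bases before it. Both promoters are shown because F13a1 is among the sharpest markers and Ctss is a leading gene outside the rule. The capitals mark AGGAAGT, or ACTTCCT where it lies on the other strand. F13a1 is at chr17:28020947-28021246 and Ctss at chr2:185775146-185775445, both on the plus strand.
F13a1: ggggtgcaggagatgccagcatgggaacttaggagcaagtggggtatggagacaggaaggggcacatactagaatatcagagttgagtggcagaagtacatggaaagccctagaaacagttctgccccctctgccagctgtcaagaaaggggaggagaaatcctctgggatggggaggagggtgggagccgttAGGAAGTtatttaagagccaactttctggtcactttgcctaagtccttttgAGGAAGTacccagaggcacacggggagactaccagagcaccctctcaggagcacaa
Ctss: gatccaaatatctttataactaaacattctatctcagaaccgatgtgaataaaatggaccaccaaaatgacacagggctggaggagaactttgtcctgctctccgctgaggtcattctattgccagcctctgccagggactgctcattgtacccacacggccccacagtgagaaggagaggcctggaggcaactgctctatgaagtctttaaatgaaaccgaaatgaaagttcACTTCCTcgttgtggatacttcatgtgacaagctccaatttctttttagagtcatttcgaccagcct
A match is a description of the letters and was not set against binding data.

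The positive nuclei carried the genes known from resident and perivascular macrophages. Of 15 such genes at 20 CPM or more, 10 were at least 2-fold higher in positive than in negative nuclei in every library and none was lower, where 2.6% of 7192 genes were higher and 0.82% lower. The classes were split by Mrc1 and Cd163, which go with these genes, so nothing is read from the count. Lyve1, the hyaluronan receptor of lymphatic vessels and perivascular macrophages, stood at 56.4 and 110 CPM in positive nuclei of taPVAT and at 34.3 and 41.4 CPM in those of BAT. Among negative nuclei it had 2 UMIs in taPVAT 1, 1 in BAT 1 and none in taPVAT 2 and BAT 2. Stab1 stood at 123 and 304 CPM in positive nuclei of taPVAT and at 174 and 146 CPM in those of BAT, against 0 to 4.35 CPM in negative nuclei. Folr2, a folate receptor of resident macrophages, ranged from 35.5 to 88.8 CPM in positive nuclei and from 0 to 2.90 CPM in negative ones. Ccl24, an eosinophil-attracting chemokine, ranged from 21.7 to 37.1 CPM in positive nuclei and had no UMI in any of the 452 negative nuclei, which allows up to 3 UMIs in their sum. Tcf4 and Wwp1 of the same list were near the level of all other barcodes in both classes.

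Other genes set the positive nuclei apart as strongly. Dab2, a clathrin adaptor for endocytosis, led the genes outside the rule, with 167 and 354 CPM in positive nuclei of taPVAT and 194 and 255 CPM in those of BAT, against 0 to 4.35 CPM in negative nuclei. Asgr2, a subunit of the asialoglycoprotein receptor, ranged from 72.9 to 176 CPM against 0 to 1.45 CPM. Slc9a9, an endosomal sodium-proton exchanger, was the most abundant of the leading genes of positive nuclei outside the rule. It stood at 768 and 1412 CPM in taPVAT and at 1037 and 718 CPM in BAT, against 16.0 to 68.1 CPM. Gria2, an AMPA glutamate receptor subunit, ranged from 62.5 to 157 CPM against 1.45 to 9.59 CPM. Of the complement and coagulation list without F13a1, a marker of the rule, 5 of 8 genes were at least 2-fold higher in each library, among them the 3 C1q genes. Of 7192 genes, 2.6% were so. The split by Mrc1 and Cd163 goes with such genes, so nothing is read from this count. C1qc stood at 61.6 and 144 CPM in positive nuclei of taPVAT and at 102 and 98.7 CPM in those of BAT, against 0 to 12.8 CPM in negative nuclei. Msr1, the class A scavenger receptor, ranged from 39.0 to 101 CPM against 0 to 1.45 CPM. It was with Axl 1 of 2 genes at least 2-fold higher among 9 scavenger and phagocytic receptors outside the rule, against the same 2.6%. Nothing is read from this count either.

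Other genes were higher in negative nuclei, some of them known from myeloid cells and leukocytes. The fixed monocyte and inflammatory list had 9 genes at 20 CPM or more. Of these, 2 were at least 2-fold higher in negative nuclei of each library, against 0.82% of 7192 genes. Ccl2 alone was so in positive nuclei, against 2.6%. As the classes were split by markers, nothing is read from these counts. Plac8, known from monocytes and other leukocytes, stood at 94.2 and 278 CPM in negative nuclei of taPVAT and at 114 and 550 CPM in those of BAT, against 14.3 to 44.4 CPM in positive nuclei. Its UMIs came from 28 of 113 negative nuclei in taPVAT 1, 34 of 64 in taPVAT 2, 52 of 231 in BAT 1 and 29 of 44 in BAT 2. Itgal, the alpha chain of the leukocyte integrin LFA-1, stood at 85.5 and 316 CPM in taPVAT and at 69.7 and 207 CPM in BAT, against 9.52 to 37.3 CPM. In both tissues these genes were higher in negative nuclei of the library labelled 2, as were Treml4 (107, 473, 113 and 400 CPM in taPVAT 1, taPVAT 2, BAT 1 and BAT 2) and Lyz2, lysozyme (123, 760, 211 and 612 CPM). Samhd1, a nucleotide hydrolase that restricts viruses, ranged from 85.2 to 222 CPM against 6.07 to 23.1 CPM in positive nuclei. When the nuclei were split after thinning to 1000 UMIs, 6 of the 15 leading genes of the negative side remained at least 2-fold higher in negative nuclei of each library: Samhd1, Itgal, Plac8, Cd68, Rap1gap2 and Asph, of which Cd68 is a marker of the rule. Treml4 and Lyz2 did not, with log2 ratios of positive over negative nuclei of -0.68 for Treml4 in BAT 1 and -0.58 for Lyz2 in taPVAT 1, nor did Slfn4, Fyn, Itga4, Lilrb4, Pfn1, Sntb1 and Adgre4. Adgre4 turned its sign in taPVAT 1 (0.19). Of the leading genes of the positive side, the 12 outside the rule remained at least 2-fold higher there. Only the counts that set this split were thinned, while the levels came from all UMIs. Nuclei that lost their Mrc1 and Cd163 UMIs thus moved to the negative side. Mrc1 stood there at 90.3, 144, 53.5 and 135 CPM in taPVAT 1, taPVAT 2, BAT 1 and BAT 2. Losses on the negative side therefore cannot tell depth from this mixing. Csf1r, a marker of the rule, was in both classes, at 127 to 190 CPM in positive and 138 to 511 CPM in negative nuclei. Negative nuclei had to meet the rule on markers other than Mrc1 and Cd163, so the rule itself raises Csf1r in them. The lower level of Plac8, Itgal, Treml4 and Lyz2 in negative nuclei of the libraries labelled 1 moved with the share of nuclei that met the rule on Mertk and Cd68 alone. The part of that share in the level was not tested.

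**Figure D3:**
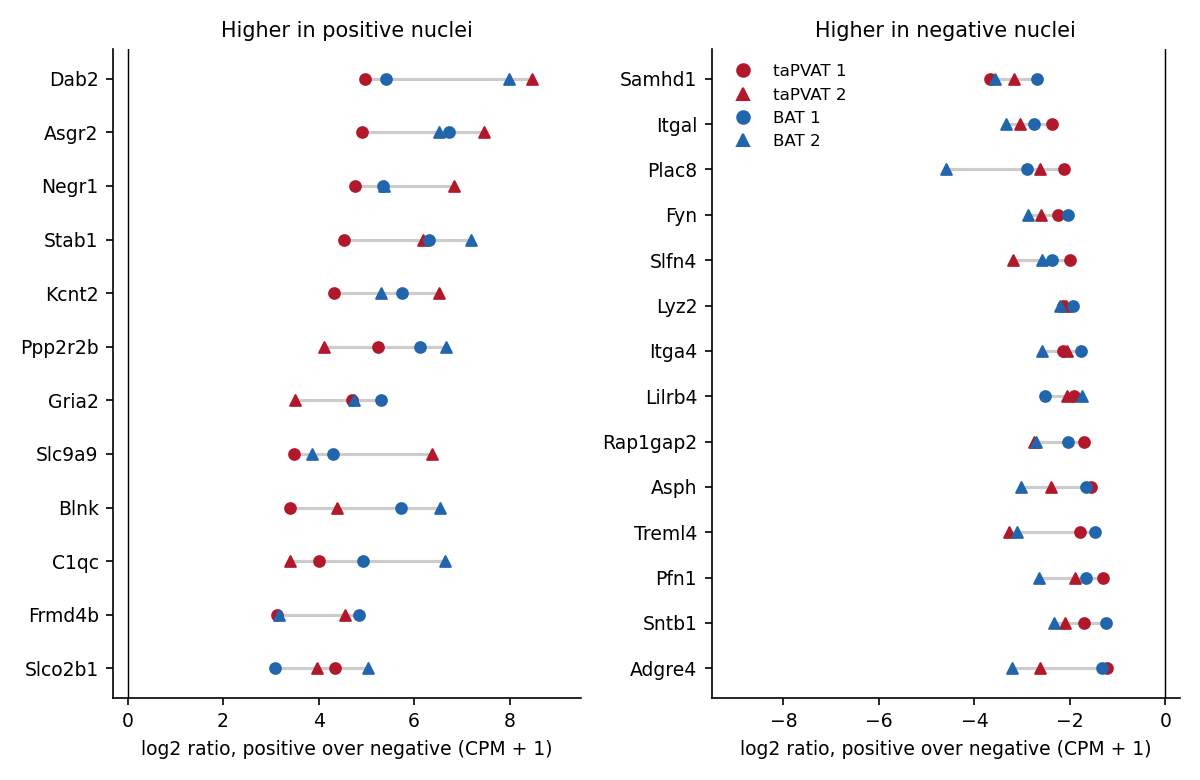
Log2 ratio of CPM + 1 in positive over negative nuclei for the leading genes outside the 7 markers of the rule, with 1 point per library (circle, replicate 1; triangle, replicate 2; red, taPVAT; blue, BAT) and a line over their range. Dab2, Asgr2 and Negr1 lead on the positive side and Samhd1, Itgal and Plac8 on the negative side, each with all 4 libraries on the same side of 0. Where negative nuclei had no UMI, the ratio depends on the 1 CPM added.

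The list of MHC class II antigen presentation was higher in positive than in negative nuclei in 3 of 4 libraries. It summed to 245, 831, 669 and 588 CPM in positive nuclei of taPVAT 1, taPVAT 2, BAT 1 and BAT 2, and to 113, 281, 112 and 1268 CPM in negative nuclei. Of 9 such genes at 20 CPM or more, 7 were at least 2-fold higher in macrophage nuclei than in all other barcodes in each library. Of all 7192 genes at that level, 5.67% were so. None of the 9 was at least 2-fold higher in positive than in negative nuclei of each library, against 2.6% of the 7192. That last count rested on 1 negative nucleus of BAT 2, that with the most Cd74 UMIs. Without it, 5 of the 9 (Cd74, RT1-Db1, RT1-Ba, RT1-Bb and Ifi30) were at least 2-fold higher in positive nuclei of each library. The share of 2.6% of all genes stands with no nucleus left out. The list then summed to 222 CPM in the negative nuclei of BAT 2. No nucleus was left out of the positive nuclei or of another library, so this step favours the positive side. Cd74, the invariant chain, stood at 93.7 and 236 CPM in positive nuclei of taPVAT and at 220 and 166 CPM in those of BAT. In negative nuclei it stood at 40.6 and 115 CPM in taPVAT and at 40.5 and 439 CPM in BAT, and 82 of the 91 UMIs behind the last value came from that nucleus. S100a9, a calcium-binding protein of neutrophils and monocytes, had a like pattern: it stood at 153 CPM in macrophage nuclei of BAT 2 and at 1.83 to 14.8 CPM in the other 3 libraries, with 73 of its 109 UMIs in BAT 2 in 1 nucleus. Neither value describes the class as a whole. The 10 genes of a neutrophil list summed to 246 CPM in macrophage nuclei of BAT 2 and to 5.97 to 36.5 CPM in those of the other 3 libraries. Among lipid-handling genes, Lpl, Fabp4 and Plin2 were near their level in all other barcodes in both classes, as the adipocyte list was, while Gpnmb, a glycoprotein of lipid-laden macrophages, stood at 9.22 and 65.1 CPM in taPVAT and at 6.59 and 39.2 CPM in BAT against 0.911 to 4.39 CPM elsewhere. Of 15 lipid-associated genes at 20 CPM or more, 2 were at least 2-fold higher than elsewhere in each library, against 5.67% of 7192 genes. The median log2 ratio of these 15 was 0.14. Runx1, a haematopoietic transcription factor, stood at 141 and 379 CPM in macrophage nuclei of taPVAT and at 162 and 337 CPM in those of BAT, against 17.6 to 20.2 CPM. Of 23 macrophage transcription factors at 20 CPM or more, 6 were 2-fold higher in each library, against the same 5.67%. Their median log2 ratio was 0.40. The noradrenaline, angiotensin and steroid hormone list had 7 genes at 20 CPM or more. Of these, 0 of 7 were 2-fold higher than in all other barcodes in each library, against 5.67% of 7192 genes.

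Between the tissues, no gene of the macrophage nuclei passed edgeR's test with a filter on low counts and tissue as the only term, called the filtered fit below. edgeR's quasi-likelihood test on the UMI sums of 2 taPVAT against 2 BAT libraries called 0 of 9107 genes (0%) at a Benjamini-Hochberg adjusted p under 0.05, with 84 genes at an unadjusted p under 0.05 and a smallest adjusted p of 0.9998. DESeq2 called 2, Foxp2 and Hs6st3. Negative nuclei gave 1679159 of the 2729443 UMIs of this sum in BAT 1. They gave 690148 of 1843068 in taPVAT 1, 312984 of 875893 in taPVAT 2 and 207403 of 714174 in BAT 2. Restricted to positive nuclei, edgeR called 0 of 7822 genes (0%), with 75 at an unadjusted p under 0.05. The groups did not overlap in 1861 genes (20.4%), 948 higher in taPVAT (10.4%) and 913 lower (10%). The absence of calls depended on single libraries: 10 genes were called without taPVAT 2, 9 without BAT 1 and 2 without taPVAT 1, and 0 without BAT 2. Without a filter on low counts 16 genes were called. More genes were called with a term for the replicate number, which the last section describes with its limits.

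The gene with the smallest p within macrophage nuclei in the filtered fit was Hs6st3 (ENSRNOG00000037886), which encodes a heparan sulfate 6-O-sulfotransferase. It stood at 60.2 and 84.5 CPM in macrophage nuclei of taPVAT 1 and 2 and at 13.2 and 7.001 CPM in those of BAT 1 and 2. Both taPVAT libraries lay above both BAT libraries, with a mean of 72.4 CPM ± 17.2 against 10.1 CPM ± 4.38 (SD, n = 2 each). The log2 fold change was 2.70 ± 0.43 (SE), and the adjusted p from edgeR was 0.9998. The call thus failed in this fit, while DESeq2, the fit without a filter and the edgeR fits without taPVAT 1, without taPVAT 2 and without BAT 1 called it, with adjusted p-values from 0.000144 to 0.0471. Without BAT 2 the adjusted p from edgeR was 0.165, and with other choices of nuclei or without TMM factors it was 0.823 or more. In all other barcodes the gene stood at 3.12 and 4.37 CPM in taPVAT and at 1.85 and 2.94 CPM in BAT. Its UMIs were concentrated: they came from 21 of 385 nuclei in taPVAT 1, 9 of 212 in taPVAT 2, 10 of 471 in BAT 1 and 3 of 165 in BAT 2. A single nucleus held 41 of the 111 UMIs of taPVAT 1, and 110 of those 111 and all 74 of taPVAT 2 lay in positive nuclei.

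The next genes by p-value, none of them called in the filtered fit, differed in the same direction in the rest of the tissue. Foxp2, a forkhead transcription factor, stood at 532 and 187 CPM in macrophage nuclei of taPVAT and at 57.9 and 22.4 CPM in those of BAT, and in all other barcodes at 498 and 275 CPM and at 63.9 and 24.9 CPM. DESeq2 called it (adjusted p 0.00185), as did edgeR without a filter, without taPVAT 2 and without BAT 1, while the filtered edgeR fit did not (adjusted p 0.9998). Aox3, an aldehyde oxidase, stood at 176 and 135 CPM in taPVAT and at 46.5 and 37.8 CPM in BAT, with 145 and 109 CPM and 46.0 and 60.0 CPM in all other barcodes. Asic2, an acid-sensing ion channel, stood at 81.4 and 13.7 CPM in taPVAT, had no UMI in BAT 1 and 1 UMI in BAT 2, and stood at 97.8 and 26.9 CPM and at 2.95 and 3.93 CPM elsewhere. For these genes both taPVAT libraries lay above both BAT libraries in macrophage nuclei and in all other barcodes alike. Gpm6a, Slit2, Rims2, Ednrb, Vat1l, Pkhd1l1, Fbn1 and Snx10 completed the 12 genes higher in taPVAT, with differences in all other barcodes of 1.15 to 2.16 on the log2(CPM + 1) scale. Fbn1, the microfibril protein fibrillin 1 made by fibroblasts, was lower in macrophage nuclei (21.2 and 33.1 CPM in taPVAT, 5.86 and 4.20 CPM in BAT) than elsewhere (62.6 and 74.3 CPM, 28.5 and 32.1 CPM).

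The 12 genes lower in taPVAT included Zdbf2, Kcnc2, Pdgfd, Rcan2, Angpt1, Impdh1, Osbpl6, Stk39, Bbof1, Tbx15 and Ssc4d, again uncalled in the filtered fit. Without the filter, edgeR called 9 of the 24 named genes: Hs6st3, Foxp2, Aox3, Asic2, Slit2, Gpm6a, Pkhd1l1, Zdbf2 and Tbx15. Zdbf2, an imprinted zinc-finger gene, had no UMI in any macrophage nucleus of taPVAT and stood at 9.89 and 32.2 CPM in those of BAT, with 0.363 and 1.51 CPM against 12.3 and 30.1 CPM in all other barcodes. Impdh1, an enzyme of guanine nucleotide synthesis, stood at 44.5 and 26.3 CPM in taPVAT and at 141 and 75.6 CPM in BAT, and at 43.2 and 29.7 CPM and 156 and 89.95 CPM elsewhere. Tbx15, a T-box factor of brown fat, stood at 9.77 and 2.28 CPM in taPVAT and at 44.7 and 15.4 CPM in BAT, and at 9.82 and 3.99 CPM and 54.9 and 24.6 CPM elsewhere. All 12 had the same direction in all other barcodes. The part of RNA from other cells in these differences was not tested beyond the comparison by class below.

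**Figure D4:**
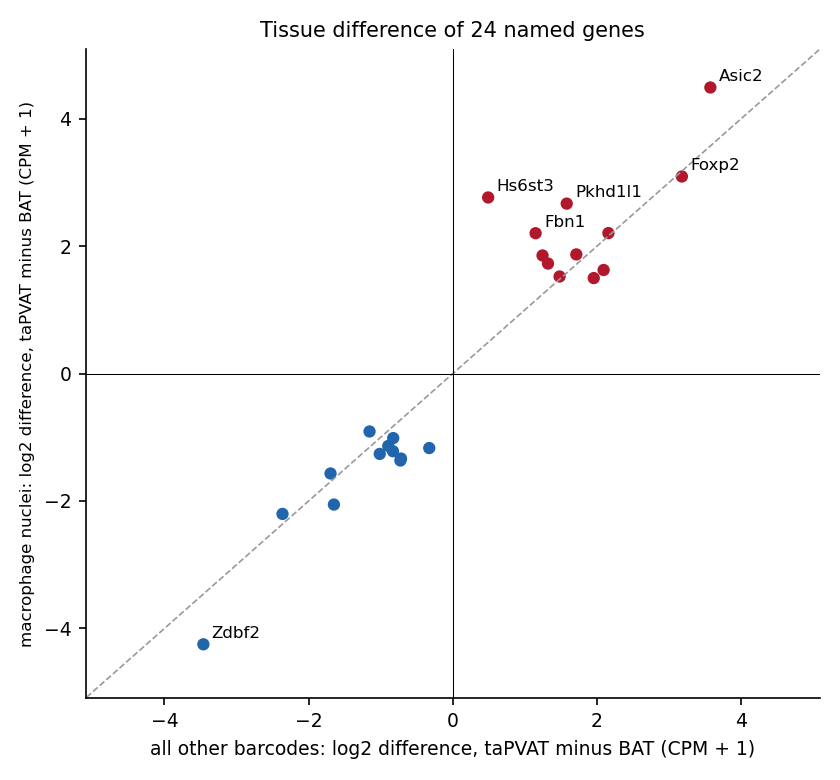
Difference between tissues, taPVAT minus BAT, as the mean log2(CPM + 1) of 2 libraries each, in macrophage nuclei (vertical axis) against all other barcodes (horizontal axis), for the 24 named genes (red, higher in taPVAT; blue, lower). The dashed line marks equal differences. Most genes lie near it, and Hs6st3 lies farthest above it, at 2.76 in macrophage nuclei and 0.49 in all other barcodes. The genes were chosen by their difference in macrophage nuclei, and none was called in the filtered edgeR fit, while DESeq2 called Foxp2 and Hs6st3 and edgeR without a filter 9 of the 24.

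Among the gene lists, none had a member called between the tissues in the filtered edgeR fit. In the resident and perivascular list, 6 of 16 tested genes did not overlap between the tissues and were higher in taPVAT, against 10.4% of all genes, and the median log2 fold change was 0.33 against -0.00 over all genes tested. Lists of other cell types also moved: in macrophage nuclei 2 of 7 fibroblast genes outside the rule were higher in taPVAT without overlap, against the same 10.4%, and 5 of 13 adipocyte genes were lower, against 10% of all genes. Of the erythroid and platelet list, 2 of 3 genes, the haemoglobin genes Hbb and Hba-a1, were lower without overlap, with a median log2 fold change of -1.12 (3 of 3 in positive nuclei, -1.58). Wt1, the 1 mesothelial gene tested, was higher without overlap, at 7.596 and 13.7 CPM in taPVAT against 0.366 CPM in BAT 1 and no UMI in BAT 2. Nrp2 of 2 lymphatic endothelial genes and Mcam of 6 mural genes outside the rule were lower without overlap. Their part in the result was not tested. The share of positive nuclei, which carry the list, was lowest in BAT 1 (51.0%) and highest in BAT 2 (73.3%). The part of this share in the result was not tested. Summed, the list stood at 1618 and 1714 CPM in macrophage nuclei of taPVAT and at 1405 and 1271 CPM in those of BAT, without overlap. Its sum in all other barcodes was 1077 and 794 CPM in taPVAT and 1018 and 805 CPM in BAT, so much of it was not particular to macrophage nuclei. In positive nuclei alone it stood at 1963 and 2288 CPM in taPVAT and at 2194 and 1492 CPM in BAT, where the tissues overlapped. Of the single genes, 5 of 16 were without overlap and higher in taPVAT in positive nuclei, against 10.5% of all genes tested there, with a median log2 fold change of 0.23; Clec10a was no longer among them. The 6 resident genes were Lyve1, Colec12, Selenop, Ednrb, Igf1 and Clec10a. Lyve1 stood at 36.4 and 70.8 CPM in macrophage nuclei of taPVAT and at 13.6 and 29.4 CPM in those of BAT, which differed by 1.37 ± 0.53 (SE) on the log2 scale at an unadjusted p of 0.039 and an edgeR adjusted p of 0.9998. It had a UMI in 41 of 385, 39 of 212, 28 of 471 and 17 of 165 nuclei of taPVAT 1, taPVAT 2, BAT 1 and BAT 2. Colec12, a scavenger receptor with a C-type lectin domain, stood at 150 and 190 CPM in taPVAT and at 89.0 and 101 CPM in BAT. Selenop, the plasma selenium carrier, stood at 89.0 and 73.1 CPM in taPVAT and at 48.4 and 33.6 CPM in BAT. Ednrb and Igf1 were at similar levels in all other barcodes, with the same direction for Ednrb (31.6 and 53.6 CPM against 12.2 and 16.4 CPM). In the MHC class II list 0 of 10 were without overlap in either direction, with a median log2 fold change of -0.42.

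Without overlap and higher in taPVAT were also 2 of 21 identity genes, 2 of 12 monocyte and inflammatory genes, 1 of 11 scavenger and phagocytic receptors outside the rule, 2 of 9 growth factors and matrix enzymes outside the rule, 2 of 11 iron and haem genes and 3 of 24 transcription factors, where 10.4% of all genes were so. Lower without overlap were Tfrc of the iron list and Zfhx3 of the transcription factors, where 10% of all genes were so. The median log2 fold change of these 6 lists ran from 0.05 to 0.28. The scavenger receptor gene was Itgav, which in positive nuclei alone was lower in taPVAT without overlap. Tfec, a transcription factor of the Mitf family found in macrophages, was 1 of those 3, at 22.2 and 41.1 CPM in taPVAT and at 13.2 and 16.8 CPM in BAT, against at most 0.583 CPM elsewhere. Hmox1, the haem-degrading oxygenase, stood at 10.3 and 21.7 CPM in taPVAT and at 2.20 and 8.40 CPM in BAT. Of the lipid-associated list, 1 of 16 genes was higher and 3 were lower without overlap, the latter being Lpl, Ctsl and Plin2, all near their level in all other barcodes. Of 18 tested cytokine, chemokine and growth factor receptors outside the rule 1 was higher, and of 9 genes of the hormone list 1 was lower. Of the other cell types, the 2 fibroblast genes were Pi16 and Fbn1 and the 5 adipocyte genes Lipe, Cidea, Lpl, Dgat2 and Ghr, and none was called in the filtered fit. Acaca was the 1 adipocyte gene higher without overlap. Dcn is left out because the rule limits its UMIs. The summed fibroblast list, Dcn included, was 249 and 327 CPM in macrophage nuclei of taPVAT and 163 and 237 CPM in those of BAT, against 369 to 511 CPM elsewhere.

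Whether the difference between tissues was another one in macrophage nuclei than in all other barcodes was tested directly, with a term for the library and the interaction of class and tissue. edgeR called 3 of 15418 genes (0.0195%): Ppp2r2b, Apobec1 and Slco2b1. In each, the log2 difference between the tissues was larger in size in all other barcodes (2.17, -1.22 and -0.89) than in macrophage nuclei (0.53, 0.53 and 0.29). Ppp2r2b (ENSRNOG00000018851), a regulatory subunit of protein phosphatase 2A, stood at 93.3 and 121 CPM in macrophage nuclei of taPVAT and at 75.5 and 71.4 CPM in those of BAT, and in all other barcodes at 8.38 and 5.09 CPM and at 1.22 and 1.79 CPM. The difference of the log2 differences was -1.72 ± 0.30 (SE; edgeR adjusted p 0.000246). Nearly all of its UMIs lay in positive nuclei, 170 of 172 in taPVAT 1 and all 51 in BAT 2.

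Apobec1 (ENSRNOG00000015411), the cytidine deaminase that edits apolipoprotein B RNA, stood at 64.6 and 95.9 CPM in macrophage nuclei of taPVAT and at 52.0 and 57.4 CPM in those of BAT. All other barcodes had 1.79 and 3.96 CPM in taPVAT and 3.90 and 9.52 CPM in BAT, the opposite order of the means with an overlap. Its difference of differences was 1.63 ± 0.33 (SE; edgeR adjusted p 0.0057). Slco2b1 (ENSRNOG00000017976), an organic anion transporter, stood at 125 and 209 CPM in taPVAT and at 133 and 136 CPM in BAT, and at 18.7 and 17.4 CPM and at 35.6 and 32.0 CPM elsewhere, with a difference of 1.13 ± 0.25 (SE; edgeR adjusted p 0.0377). In macrophage nuclei its tissues overlapped. Without BAT 2 no gene was called, DESeq2 called 0 (79 genes at an unadjusted p under 0.05), and 0 were called with at least 4 UMIs over 3 markers in the rule. The count was 53 without taPVAT 1 and 14 without taPVAT 2. Hs6st3 was not among the called genes.

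**Figure D5:**
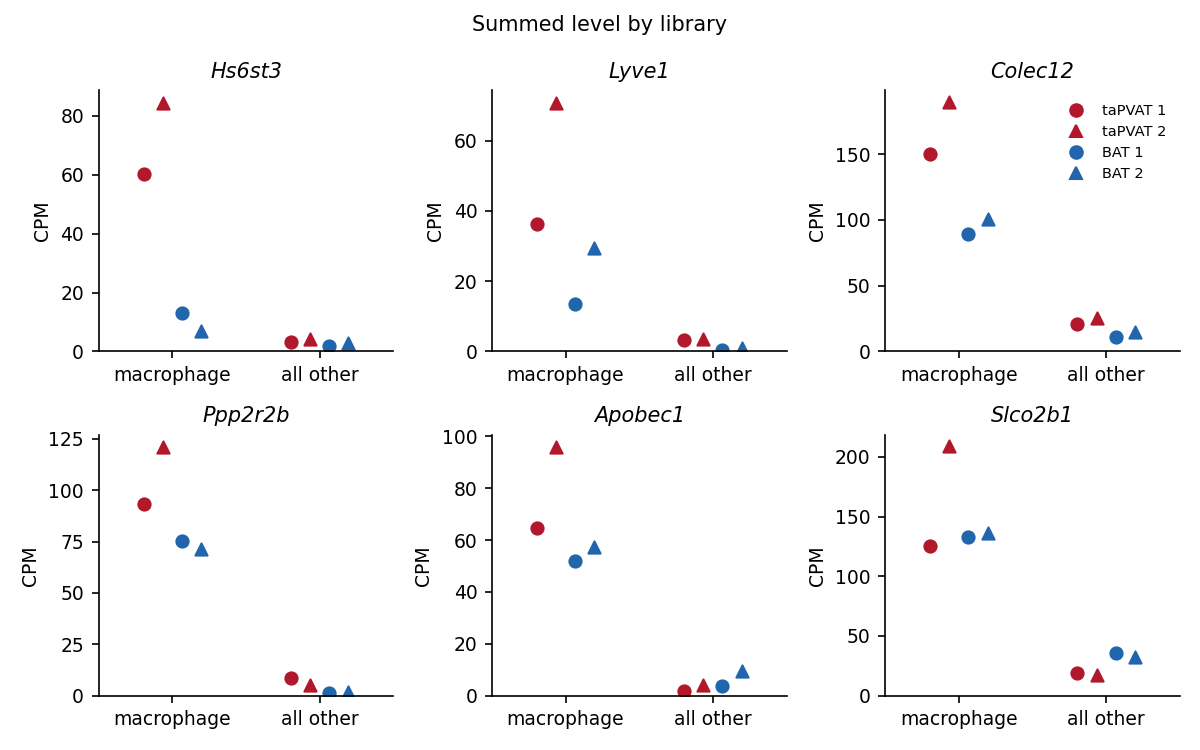
CPM of 6 genes in macrophage nuclei and in all other barcodes, with 1 point per library (circle, replicate 1; triangle, replicate 2; red, taPVAT; blue, BAT) on axes that start at 0. Hs6st3, Lyve1 and Colec12 are higher in macrophage nuclei of both taPVAT libraries than of both BAT libraries without being called in the filtered edgeR fit (DESeq2 and edgeR without a filter called Hs6st3), and Ppp2r2b, Apobec1 and Slco2b1 are the genes whose tissue difference differed between the classes.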

How the data were processed

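The deposited files held counts of UMIs per gene and barcode, made by the authors with Cell Ranger 7.1.0 on Rnor_6.0, per the submitters' processing notes, from nuclear RNA (10x 3' chemistry, per the labels' protocols). Of 32883 features, 192 symbols were repeated. The 4 libraries held 63654436 to 158140959 UMIs, and the macrophage nuclei 714174 to 2729443. UMIs were summed per library and class and scaled to CPM. The tissue and class-by-tissue comparisons used edgeR 4.0.16 (TMM, filterByExpr, robust quasi-likelihood, Benjamini-Hochberg 0.05) on R 4.3.3; DESeq2 1.42.0 was an alternative. Shares were compared by exact permutation over libraries. Scrublet ran in scanpy 1.11.5, thinning used seed 7. Macrophage nuclei against other barcodes, and positive against negative nuclei, were described without a test, because the markers chose them. On simulated data the tissue fit called 169 of 200 genes changed 4-fold over 8969 genes tested (9 of the 200 did not pass the filter), and the class-by-tissue fit 107 of 200 over 15417. They also called 7 and 4 unchanged genes. The simulation drew from a pooled profile of each class with a dispersion of 0.05 for every gene. Its libraries otherwise differed only in depth and tissue, so it does not give the power of the fits in these data. Between tissues the text names called genes, filled to 12 per direction with uncalled genes of smallest p at 20 CPM or more and without overlap; between classes the 15 per direction with the largest smallest ratio (1 CPM added) at 50 CPM or more in each library; and members of the gene lists by level. Singled out besides, after their values were seen, were Tfec, Hmox1, Gpnmb, Runx1, S100a9 and the genes of the list examples. Members, markers and gene lists were chosen with earlier results of these data known. Of 366 list genes 352 were in the files; the others were not analysed here. Some results are not reported here.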

Additional observations from a re-analysis of the deposited data

Results flagged for a closer look

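The difference between tissues was not the same in macrophage nuclei and in all other barcodes for 3 genes, by edgeR's interaction of class and tissue. The difference of log2 differences, macrophage nuclei minus all other barcodes, was -1.72 for Ppp2r2b, 1.63 for Apobec1 and 1.13 for Slco2b1. Their calls depended on the processing: of 13 alternatives, Ppp2r2b lost its call in 6, Apobec1 in 9 and Slco2b1 in 9, and none changed sign. Among the libraries, leaving out BAT 2 ended all 3 calls. Leaving out taPVAT 1 ended those of Ppp2r2b and Apobec1, leaving out BAT 1 those of Ppp2r2b and Slco2b1, and leaving out taPVAT 2 that of Slco2b1.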

How the results depend on the processing

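The count of 0 genes called between tissues in macrophage nuclei stayed 0 without TMM factors, with stricter markers, without any UMI of other cell types, with at least 1000 genes, without doublets, with at most 10% mitochondrial UMIs, with equal numbers of nuclei, in positive nuclei alone and with Mertk and Cd68 left out of the rule. DESeq2 called 2 and edgeR without a filter 16; leaving out a library gave 0 to 10, where the lone library of a tissue is assumed to vary like the other tissue's. A replicate block gave 112 calls; same-numbered libraries share only a number, and their deviations had a correlation of 0.609 over 9107 genes, a hint from 2 pairs and not from the design. All 24 named genes kept their direction in each alternative that tested them, and each was called under the block. For the class-by-tissue comparison, the 3 calls became 0 with DESeq2, 0 with stricter markers, 1 without any UMI of other cell types, 9 in positive nuclei alone and 7 without Mertk and Cd68; leaving out a library gave 0 to 53. The difference in macrophage share ranged from -0.0937 to 0.729 percentage points when a library was left out and was -0.0775 points with at most 10% mitochondrial UMIs. The difference in positive share ranged from -3.10 to 19.3 points without a library. When nuclei were split into positive and negative after thinning to 1000 UMIs, 133 genes at 50 CPM or more were at least 2-fold higher in positive nuclei of each library and 5 lower, against 73 and 15. Only the counts that set the split were thinned, which moved positive nuclei to the negative side. The alternatives in positive nuclei alone, without the rule's genes in the lists, without Mertk and Cd68 and without the 1 nucleus of BAT 2 with most Cd74 UMIs were chosen after seeing the data. The cause of these changes was not tested. Depth limits the genes of low level most: the macrophage nuclei of BAT 2 held 714174 UMIs, so 5 UMIs make 7.001 CPM there.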
